A study of Mus musculus with 12 samples.

Results

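Bmal1, Clock and Npas2, the bHLH-PAS activators of the circadian clock, were followed in the kidney of mice treated with cannabidiol (CBD). These 3 genes were picked by symbol through their Ensembl identifiers, with their values against the control mice in these data already known, from 57180 genes counted in each library. All 3 were among the 17163 genes that passed the filter on low counts and were tested. The animals were 12 male C57BL/6J mice, 60 days old at the start, with 4 mice in each of the groups Control, 10CBD and 20CBD and 1 poly(A) RNA library per mouse. The 10CBD and 20CBD mice were injected intraperitoneally each day for 28 days with 10 or 20 mg of CBD per kg of body weight, and the Control mice received a placebo of saline with Tween 80 over the same 28 days. No group carried an altered allele, and only males of this inbred strain were studied.

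In mammalian cells BMAL1 pairs with CLOCK or with its paralog NPAS2, and the pair binds E-box sequences and activates the Period, Cryptochrome, Nr1d1, Nr1d2 and Dbp genes. The Period and Cryptochrome proteins then repress the pair. The products of Nr1d1 and Nr1d2, the REV-ERB receptors, repress transcription of Bmal1 and of Npas2 and Clock, and the ROR receptors activate Bmal1 through the same sites, so that in the kidney, as in other peripheral tissues, the activators peak at another time of day than most of their targets.

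Each library held 15417867 to 23532088 counts on genes (median 18193787.5). The share of mitochondrial genes in a library ran from 3.53% to 23.4%, and it was under 10% in 4 libraries, mouse 2 of Control, mice 1 and 3 of 10CBD and mouse 3 of 20CBD. The 8 kidney markers examined (Lrp2, Slc34a1, Slc5a2, Umod, Slc12a1, Slc12a3, Aqp2 and Nphs1) were found in every library, with a summed level of 7449 to 9201 normalized CPM in Control, 6730 to 7843 in 10CBD and 6151 to 7001 in 20CBD, so the 20CBD sums lay below all Control sums. Slc5a2, the glucose transporter of the proximal tubule, was the 1 marker of the 8 called lower in 20CBD (log2 fold change -0.61, SE 0.12, edgeR adjusted p = 0.082). Of all genes tested 0.134% were called lower. Lrp2 had the largest fall of the 8 (-0.76, SE 0.18, edgeR adjusted p = 0.173) and was not called. Of the 8 markers in 20CBD, 3 had an unadjusted p under 0.05 in edgeR, and DESeq2 called 2 and limma-voom 1. For 2 of the 8, Lrp2 and Slc5a2, all 20CBD mice lay below all Control mice, as for 2.63% of all genes tested. Slc12a1 and Aqp2 were not lower in 20CBD (log2 fold change 0.11 and 0.23). Slc34a1 and Lrp2, with the highest levels, weigh most in the sum. Normalized CPM are counts scaled to the library size after TMM normalization. P-values describe the spread between these mice, and in whole kidney fewer cells of a type and less RNA per cell cannot be told apart.

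Bmal1 (ENSMUSG00000055116) encodes the partner that both CLOCK and NPAS2 need, and lies at chr7:112806152-112914735 on the plus strand of GRCm39. It stood at 28.0, 20.0, 19.7 and 20.1 normalized CPM in the 4 Control mice. The 10CBD mice had 10.9, 11.4, 9.17 and 11.9 normalized CPM. The 20CBD mice had 9.43, 12.7, 10.3 and 5.76 normalized CPM. Every CBD-treated mouse lay below every Control mouse, mouse 1 of Control was well above the other Control mice, and mouse 4 of 20CBD was the lowest of all. The mean was 22.0 ± 4.03 normalized CPM in Control (SD, n = 4), 10.8 ± 1.18 in 10CBD and 9.53 ± 2.87 in 20CBD, so the CBD-treated groups held 49.3% and 43.4% of the Control mean. The fitted log2 fold change from Control was -1.02 (SE 0.20) in 10CBD and -1.21 (SE 0.20) in 20CBD.

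Npas2 (ENSMUSG00000026077), the paralog of Clock that can take its place beside BMAL1, lies at chr1:39232705-39402323 on the plus strand. Its level was 24.3, 19.6, 29.4 and 24.5 normalized CPM in the Control mice. In the 10CBD mice it was 9.10, 11.1, 6.69 and 9.63 normalized CPM. In the 20CBD mice it was 11.7, 11.9, 6.00 and 6.32 normalized CPM. Here too no treated mouse reached the lowest Control mouse, and the 20CBD mice fell into a higher and a lower pair. The mean of 24.4 ± 4.00 in Control (SD, n = 4) compared with 9.13 ± 1.83 in 10CBD and 8.97 ± 3.25 in 20CBD, which are 37.4% and 36.7% of the Control mean. The log2 fold change from Control was -1.42 (SE 0.23) and -1.44 (SE 0.23).

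Clock (ENSMUSG00000029238), which encodes the usual partner of BMAL1, lies at chr5:76342860-76452846 on the minus strand. Its level was 66.4, 53.0, 80.2 and 84.3 normalized CPM in Control. The 10CBD mice had 42.8, 79.2, 46.8 and 66.9 normalized CPM. The 20CBD mice had 80.6, 68.2, 56.0 and 61.5 normalized CPM. The 3 groups overlapped, and within 10CBD alone mice 2 and 4 lay well above mice 1 and 3. The means were 71.0 ± 14.2, 58.9 ± 17.1 and 66.6 ± 10.6 normalized CPM (SD, n = 4 each), or 83.0% and 93.8% of the Control mean after treatment. The log2 fold change was -0.27 (SE 0.20) in 10CBD and -0.09 (SE 0.20) in 20CBD.

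**Figure D1:**
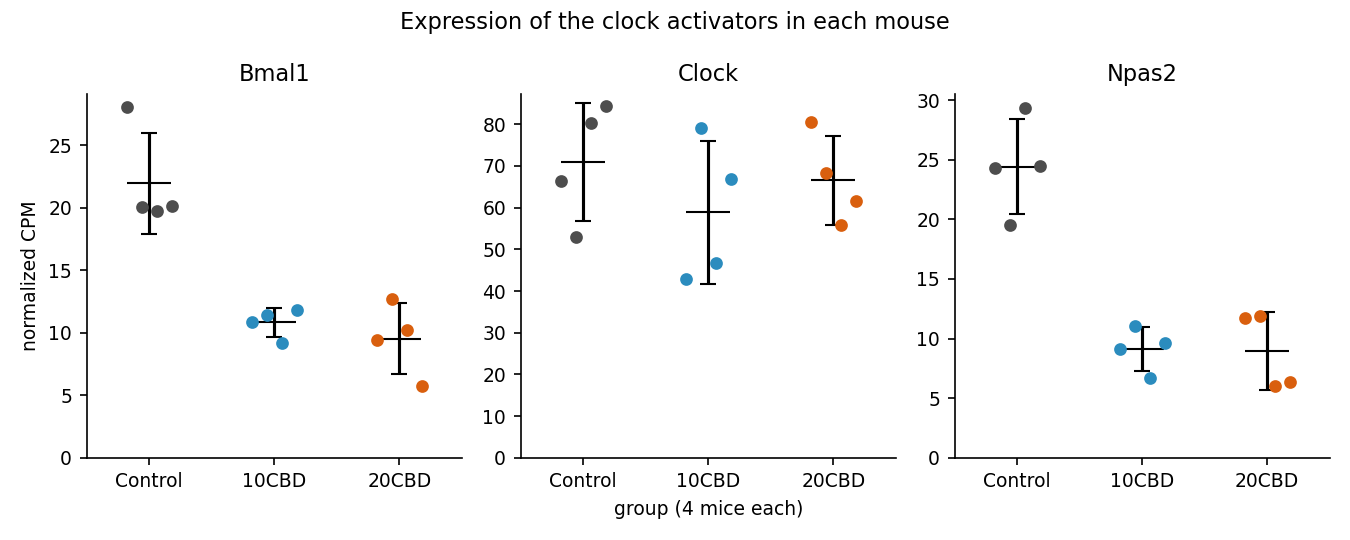
Normalized CPM (linear axes from 0, a separate scale for each gene) of Bmal1, Clock and Npas2 in each of the 4 mice of Control, 10CBD and 20CBD; points are mice, the horizontal line is the group mean and the bar is ± 1 SD. For Bmal1 and Npas2 the 8 CBD-treated mice, all at or below 12.7, sit under the 4 Control mice, all at or above 19.6, while the groups overlap for Clock.

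These differences from Control were known when the genes were chosen. The calls given below describe them and are not independent tests. The activators and their targets cycle over the day, and the hour at which the kidneys of each group were taken is not given in the sources used here. The part of that hour in the differences of the clock genes between groups was not tested. At an adjusted p under 0.1 in edgeR, 0.0291% of the genes tested were called in 10CBD against Control, and 1 of the 3 activators, Npas2, was among them. In 20CBD against Control 0.303% were called, and Bmal1 and Npas2 were among them. At both doses 2 of the 3 activators had all treated mice below all Control mice, as had 1.64% of all genes tested in 10CBD and 2.63% in 20CBD. Both doses were compared with the same 4 Control mice, so the doses do not give independent differences. The call of Npas2 in 10CBD was lost when mouse 1, 3 or 4 of 10CBD or mouse 1, 3 or 4 of Control was left out, with a log2 fold change of -1.53 to -1.30 over all fits without 1 library. Without mouse 1 of Control, the mouse highest for Bmal1, Bmal1 was no longer called in 20CBD, at a log2 fold change of -1.06.

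The direct comparison of the doses was not used to choose the genes. Of the 3 activators 0 were called between 20CBD and 10CBD in edgeR, as were 0% of all genes tested, and 0 had an unadjusted p under 0.05 or were called by DESeq2 or limma-voom. The mice of both doses overlapped for each of them, while 1.4% of the genes tested had all 20CBD mice below all 10CBD mice and 1.7% had them above. The log2 fold change of 20CBD against 10CBD was -0.18 for Bmal1 (95% confidence interval -0.62 to 0.25, edgeR adjusted p = 0.918), which leaves room for a fall of 0.62 or a rise of 0.25 on the log2 scale. For Clock it was 0.18 (-0.25 to 0.60, edgeR adjusted p = 0.918). For Npas2 it was -0.02 (-0.52 to 0.48, edgeR adjusted p = 0.995). When the mean log2 CPM of the doses was compared by exact two-sided permutation of the 8 treated mice (70 arrangements), p was 0.486 for Bmal1, 0.371 for Clock and 0.857 for Npas2, where the smallest p that 4 against 4 mice allow is 0.0286. Adjusted over these and the 3 ratios given below, the exact permutation p-values were 0.651, 0.651 and 0.857.

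**Figure D2:**
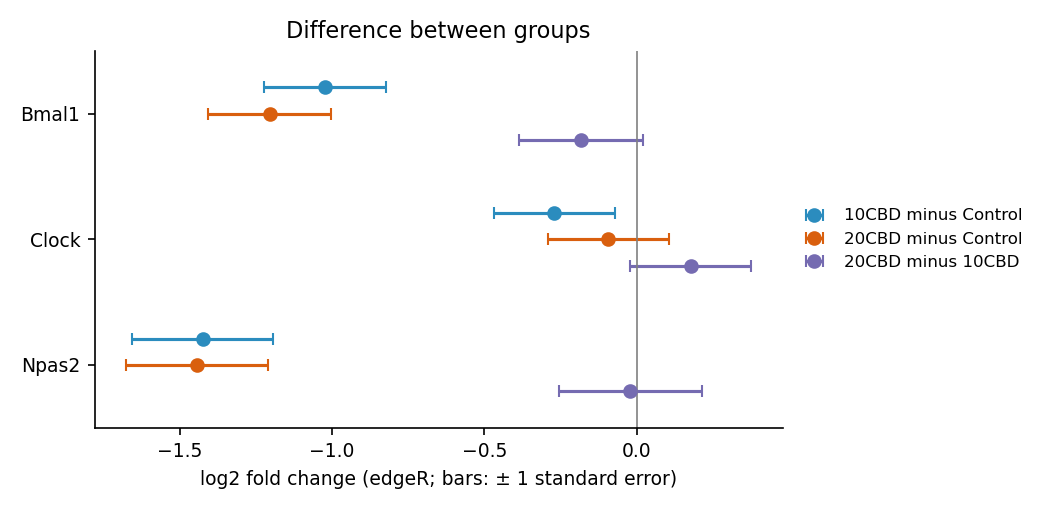
Log2 fold change of Bmal1, Clock and Npas2 in 10CBD against Control, 20CBD against Control and 20CBD against 10CBD; points are edgeR estimates, bars are ± 1 standard error and the vertical line marks no difference. Estimates for Bmal1 and Npas2 against Control lie between -1.44 and -1.02, and the 3 between the doses lie between -0.18 and 0.18.

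Levels of different genes can be set beside each other only per length. Per kb of the canonical GENCODE transcript (4.266 kb for Bmal1, 9.911 kb for Clock and 4.301 kb for Npas2), the level in Control was 7.16 ± 1.43 normalized CPM per kb for Clock (SD, n = 4), 5.68 ± 0.931 for Npas2 and 5.15 ± 0.946 for Bmal1. The ranges of the 3 genes overlapped in Control, so neighbours in this order did not differ beyond their spread. In 10CBD Clock stood at 5.94 ± 1.73 normalized CPM per kb, above Bmal1 at 2.54 ± 0.276 and Npas2 at 2.12 ± 0.425. In 20CBD the values were 6.72 ± 1.07, 2.23 ± 0.673 and 2.09 ± 0.756 normalized CPM per kb. At both doses the lowest mouse for Clock was above the highest mouse for Bmal1 or Npas2, and Bmal1 and Npas2 overlapped each other. The order in Control depends on the length used: per kb of all annotated exons joined, Control had 4.46 for Npas2, 4.12 for Clock and 1.90 for Bmal1.

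The ratio of counts between 2 genes within a library does not depend on the scaling of that library. The log2 ratio of Npas2 to Clock was -1.45, -1.44, -1.45 and -1.79 in the Control mice. It was -2.23, -2.84, -2.81 and -2.80 in the 10CBD mice. In the 20CBD mice it was -2.78, -2.53, -3.22 and -3.28. All 8 treated mice had less Npas2 relative to Clock than any Control mouse. On a linear scale the mean ratio was 0.348 in Control, 0.160 in 10CBD and 0.132 in 20CBD. For each Clock count there were thus about 0.348 Npas2 counts in Control and 0.132 in 20CBD. Differences of the activator ratios from Control follow from the levels above, which were known when the genes were chosen. Ratios of other gene pairs were not computed.

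The log2 ratio of Bmal1 to Clock averaged -1.69 ± 0.422 in Control (SD, n = 4), -2.40 ± 0.339 in 10CBD and -2.85 ± 0.490 in 20CBD. It ranged from -2.07 to -1.25 in Control and from -2.79 to -1.98 in 10CBD, which overlap, and from -3.42 to -2.43 in 20CBD, below all Control mice. Between Npas2 and Bmal1 the mean log2 ratio was 0.15 ± 0.346 in Control, -0.26 ± 0.171 in 10CBD and -0.11 ± 0.476 in 20CBD, and the groups overlapped. From 10CBD to 20CBD the mean log2 ratio differed by -0.28 for Npas2 to Clock, -0.44 for Bmal1 to Clock and 0.16 for Npas2 to Bmal1, with exact two-sided permutation p = 0.286, 0.200 and 0.543, each 0.651 after adjustment over the 6 tests of the doses.

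**Figure D3:**
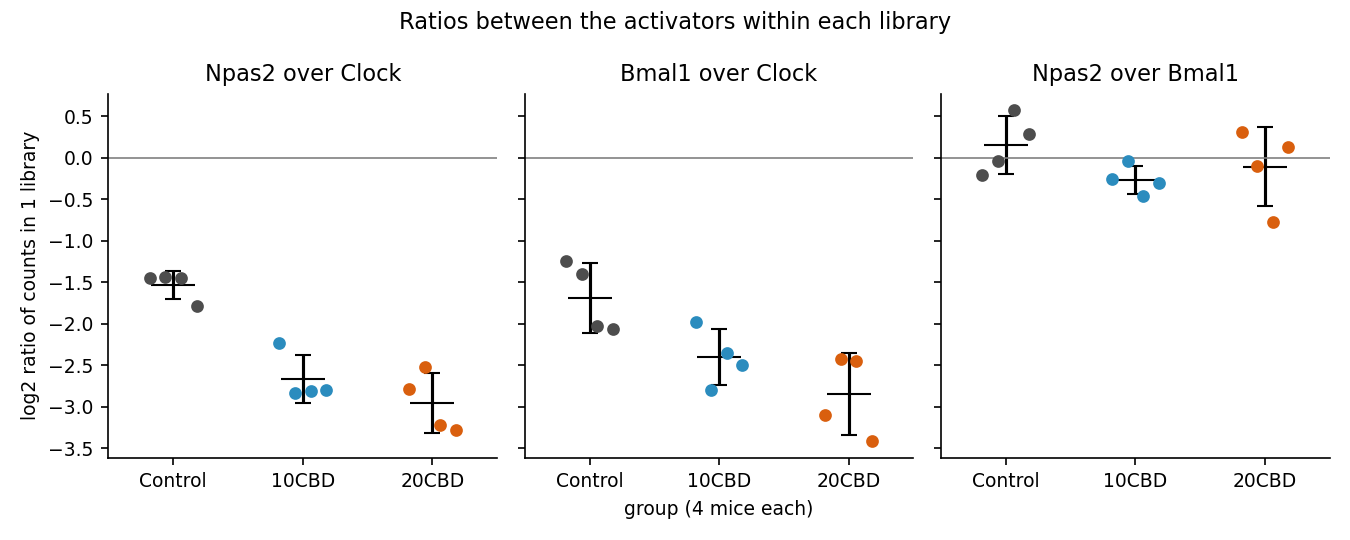
Log2 ratio of counts between pairs of activators within each library, on 1 shared axis; points are mice, lines are group means, bars are ± 1 SD (n = 4) and the grey line marks equal counts. For Npas2 over Clock the Control mice lie between -1.79 and -1.44 and the treated mice between -3.28 and -2.23, and for Npas2 over Bmal1 the 3 groups overlap around 0.

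Among the 8 treated mice, Bmal1 and Npas2 had Pearson's r = 0.610 on log2 CPM (exact permutation p = 0.0786) and Spearman's rho = 0.619 (exact permutation p = 0.115). Leaving out the 2 mice farthest from the median of Bmal1 gave r = 0.334, over a narrower range of Bmal1 that can itself lower r. Clock and Npas2 had r = 0.599 (exact permutation p = 0.125) and rho = 0.714 (exact permutation p = 0.0576), with r = 0.868 without the 2 farthest mice. Within each dose both genes were lowest in the libraries with a mitochondrial share under 10%, and the part of that share in this r was not tested. For Bmal1 and Clock the values were r = 0.121 (exact permutation p = 0.795) and rho = 0.286 (exact permutation p = 0.501), and r = 0.207 without the 2 farthest mice. After adjustment over the 6 coefficients no p was under 0.187. With the mean of each dose removed, r was 0.618, 0.674 and 0.271 for these pairs. The libraries on either side of a mitochondrial share of 10% are too few among the treated mice for a value of their own. No r is given over all 12 mice for these pairs, because Control and treated mice form separate clusters for Bmal1 and Npas2.

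The level of Clock differed between libraries of low and high mitochondrial share. In the 4 libraries with a mitochondrial share under 10% Clock lay between 42.8 and 56.0 normalized CPM, and in the other 8 between 61.5 and 84.3, with no overlap. Of all genes tested 6.65% lay below in the same way and 6.29% above. Within the libraries with the higher share, the log2 difference of mean CPM from Control was -0.07 in 10CBD and -0.14 in 20CBD for Clock. With the mitochondrial share as a covariate, the log2 fold change of Clock was -0.12 (SE 0.11) in 10CBD and -0.17 (SE 0.11) in 20CBD, and the difference between the doses turned from 0.18 to -0.05.

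Npas2 was also lowest within each group in the libraries with a share under 10%, at 19.6 normalized CPM in Control, 9.10 and 6.69 in 10CBD and 6.00 in 20CBD. The lower levels of Bmal1 and Npas2 in treated mice were seen on both sides of that split. Within the libraries with the higher share, the log2 difference from Control was -0.93 in 10CBD and -1.33 in 20CBD for Bmal1 and -1.32 and -1.43 for Npas2. Within the others, which hold 1 Control mouse, 2 mice of 10CBD and 1 of 20CBD and allow no test, it was -0.997 and -0.959 for Bmal1 and -1.31 and -1.69 for Npas2. With the mitochondrial share as a covariate, Bmal1 had log2 fold changes of -0.98 (SE 0.19) and -1.23 (SE 0.18) and Npas2 of -1.24 (SE 0.16) and -1.56 (SE 0.16). The log2 difference of Npas2 between the doses moved from -0.02 to -0.31 with this covariate, and it was not called.

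**Figure D4:**
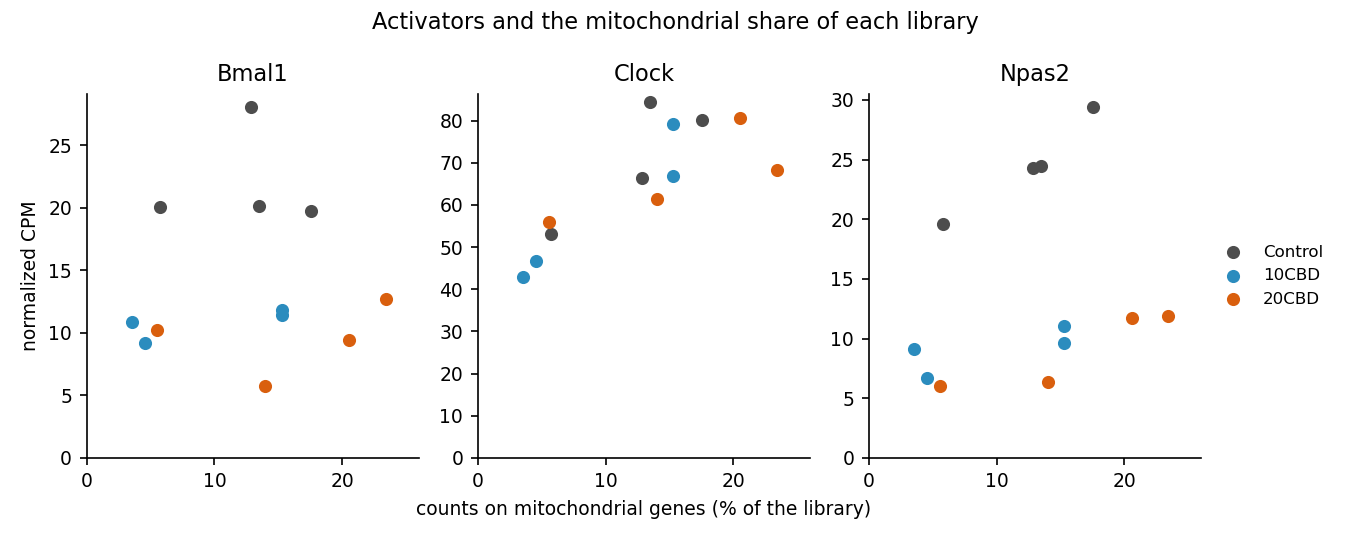
Normalized CPM of Bmal1, Clock and Npas2 (linear axes from 0) against the percentage of each library's counts on mitochondrial genes; each point is 1 of 12 mice, coloured by group. Clock is lowest, at 42.8 to 56.0, in the 4 libraries with a share under 10% whatever their group, while Control and treated mice stay apart for Bmal1 and Npas2 at low and high shares.

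Markers of other tissues around the kidney were also examined. The 8 adipocyte markers summed to 102 to 287 normalized CPM in Control, 71.6 to 147 in 10CBD and 71.1 to 121 in 20CBD, with a median log2 fold change of -1.63 and -3.02 over the 7 that were tested. In edgeR 0 of these were called at either dose, 5 and 7 had an unadjusted p under 0.05, and DESeq2 called 0 and 3. With this sum as a covariate, the log2 fold change was -0.91 (SE 0.26) in 10CBD and -1.07 (SE 0.28) in 20CBD for Bmal1 and -1.51 (SE 0.29) and -1.55 (SE 0.31) for Npas2, and neither gene was called. Mice 1, 2 and 4 of Control had adipocyte sums of 235 to 287, against at most 147 in treated mice. The covariate thus largely follows the group, and this fit cannot tell the sum from the treatment. Mouse 3 of Control, with the lowest adipocyte sum of its group at 102, had the lowest Bmal1 of that group, at 19.7 normalized CPM. The same mouse had the highest Npas2 of Control, at 29.4. The 7 adrenal cortex markers summed to between 3.73 and 5.92 normalized CPM and the 6 leukocyte markers to between 22.6 and 36.2, with overlapping groups. Of the adrenal markers only Star passed the filter on low counts. At 3.57 to 5.39 normalized CPM it made up most of that sum. The part of any of these tissues, and of the lower kidney marker sums in 20CBD, in the results was not tested beyond these values.

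Reads from neighbouring genes could enter the counts. Clock shares 2047 exonic bp with Tmem165 on the opposite strand, which had 137 to 378 counts per library against 933 to 1592 for Clock. Also on the opposite strand, Apc-ps1 (0 to 9 counts) shares 470 exonic bp with Clock and Gm7467 (1 to 14 counts) shares 124. Whether counting used the strand is not given in the sources used here. Bmal1 shares 33 exonic bp with the antisense Gm45355, at 0 to 3 counts, and Npas2 shares no exonic base with a counted gene. Antisense genes absent from the count files share 162 and 159 exonic bp with Bmal1 (Gm71992 and Gm33721). Gm53549, likewise absent and antisense, shares 697 exonic bp with Npas2. Reads from these genes were not counted apart, and their part in the counts of Bmal1 and Npas2 was not tested. Counts ranged from 102 to 667 for Bmal1 and from 100 to 583 for Npas2. The longest identical stretch between the canonical transcripts of the paralogs Clock and Npas2 was 18 bases.

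The receptors that act on Bmal1 transcription were measured next, since REV-ERB and ROR proteins compete for the same sites. At the 10 mg dose 0 of 4 receptor genes were called in edgeR (3 had an unadjusted p under 0.05, and DESeq2 called 1 and limma-voom 0). At the 20 mg dose 2 were called higher and 0 lower, with a median log2 fold change over the 4 of 0.21 and 0.30, where the median over all genes tested was 0.01 at both doses. This median describes no single receptor: at both doses the estimates of Nr1d1 and Nr1d2 were above 0 and those of Rora and Rorb below 0. Nr1d1, which encodes REV-ERB alpha, stood at 20.7, 26.2, 31.0 and 29.3 normalized CPM in Control, 28.2, 58.1, 41.5 and 58.5 in 10CBD and 78.5, 74.4, 40.1 and 75.9 in 20CBD. All 20CBD mice were above all Control mice, as for 2.67% of all genes tested, and the 10CBD mice overlapped with Control. Its log2 fold change was 0.80 (SE 0.24, edgeR adjusted p = 0.796) in 10CBD and 1.33 (SE 0.24, edgeR adjusted p = 0.0487) in 20CBD. The second call was lost in 6 of the 12 fits without 1 library.

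Nr1d2, which encodes REV-ERB beta, had 42.1, 60.1, 47.9 and 48.7 normalized CPM in Control, 68.4, 76.3, 69.8 and 78.2 in 10CBD and 97.9, 68.5, 95.2 and 84.1 in 20CBD, with all treated mice above all Control mice, as for 1.55% of the genes tested in 10CBD. The log2 fold change was 0.56 (SE 0.14, edgeR adjusted p = 0.624) and 0.80 (SE 0.14, edgeR adjusted p = 0.0357), and the latter call was lost in 3 of the 12 fits without 1 library. Between the doses 0 of the 4 receptors were called (edgeR, 2 with an unadjusted p under 0.05, and 0 by DESeq2).

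Of the activating receptors, Rora was at 120 ± 2.7, 109 ± 18.2 and 104 ± 3.12 normalized CPM (SD, n = 4 each) and was not called (log2 fold change -0.13 and -0.21). All 20CBD mice, at most 108, were below all Control mice, at least 118, as for 2.63% of the genes tested, and the 10CBD mice overlapped with Control. Rorb had only 3 to 20 counts per library, at 0.822 ± 0.241, 0.344 ± 0.172 and 0.646 ± 0.0453 normalized CPM. All 10CBD mice were below all Control mice for Rorb, as for 1.64% of the genes tested, and the 20CBD mice overlapped with Control. Its log2 fold change was -1.25 (SE 0.38, edgeR adjusted p = 0.796) in 10CBD and -0.34 (SE 0.36, edgeR adjusted p = 0.863) in 20CBD.

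Windows from 250 bases before to 50 after each RefSeq start site (2 for Bmal1, 3 for Clock, 1 for Npas2) were searched on both strands for the receptor core site AGGTCA, its extended form TAGGTCA, the E-box CACGTG and the D-box TTATGTAA that DBP, TEF, HLF and NFIL3 bind. Bmal1 holds TAGGTCA, which contains AGGTCA, in the 5′ untranslated part of an exon of its canonical transcript. A second site with the letters TAGGTTA, a form searched for only after the window had been read, lies upstream of it in an exon of the same transcript. A window of Clock, in an intron, holds AGGTCA on the strand opposite to the gene. These are shown because they hold such letters in the activators' own start regions, with the matched letters in capitals. Binding of a receptor to them was not tested.
Bmal1, chr7:112806737-112806764, plus strand: aaggcagaaagTAGGTCAgggacggagg
Bmal1, chr7:112806701-112806728, plus strand: tggtcggaaagTAGGTTAgtggtgcgac
Clock, chr5:76451452-76451479, minus strand: gctttggcctcTGACCTgacagatgaca

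The windows were taken from RefSeq (GRCm38.p6), and coordinates are those of GRCm39. Each was found once, without mismatch, on the chromosome and strand of its gene in GRCm39. Other chromosomes and the other strand were not searched for the windows. Of 32851 windows of 300 bases in the RefSeq table, AGGTCA was in 16.3%, TAGGTCA in 2.61%, TAGGTTA in 1.44%, CACGTG in 7.15% and TTATGTAA in 0.938%. The window of Npas2 held none of these letters, and no window of the 3 genes held the E-box or the D-box. A match describes the letters only, and their absence from a window says nothing about the factor.

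Around the activators, 54 of 58 listed genes of the loop, its cofactors and its modifying enzymes were tested. In 10CBD 2 were called higher and 0 lower, and in 20CBD 8 were called higher and 2 lower, beside 0.0117% and 0.0175% of all genes called higher and lower in 10CBD and 0.169% and 0.134% in 20CBD. The lists were set with earlier results of these data known. Both doses again share the Control mice.

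Dbp and Per3, both known targets of the activator pair, were called higher at both doses. Dbp, a transcription factor gene driven by E-boxes, was at 2.36 ± 0.703 normalized CPM in Control (SD, n = 4), 15.7 ± 2.81 in 10CBD and 24.0 ± 2.22 in 20CBD, with no overlap between the 3 groups. Its log2 fold change was 2.75 (SE 0.21, edgeR adjusted p = 1.88e-05) and 3.35 (SE 0.21, edgeR adjusted p = 1.31e-06), the largest of the 54 at either dose. Per3, a Period gene, rose from 10.2 ± 1.73 normalized CPM to 21.5 ± 2.26 and 26.7 ± 3.68, by 1.08 (SE 0.15, edgeR adjusted p = 0.0184) and 1.39 (SE 0.15, edgeR adjusted p = 0.00124) on the log2 scale. In 10CBD the call of Per3 was lost in 3 of the 12 fits without 1 library, those without mouse 3 of 10CBD, mouse 1 of Control or mouse 4 of Control. Per1, Per2 and Cry2, of the same target families, were not called by edgeR at either dose. Their log2 fold changes were 0.07, 0.47 and 0.39 in 10CBD and 0.54, 0.75 and 0.33 in 20CBD. Tef, Hlf and Bhlhe40 were not called either (0.49, -0.02 and 0.37 in 10CBD and 0.60, 0.12 and 0.03 in 20CBD).

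Beside Dbp, Per3, Nr1d1 and Nr1d2, 4 further genes were called higher in 20CBD and 2 lower. Between the doses 0 of the 54 were called (edgeR, 11 with an unadjusted p under 0.05, and 0 by DESeq2 or limma-voom). Bhlhe41, which encodes the E-box repressor DEC2, had 1.54 ± 0.365 normalized CPM in Control, 2.48 ± 0.275 in 10CBD and 4.27 ± 0.415 in 20CBD (log2 fold change in 20CBD 1.46, SE 0.21, edgeR adjusted p = 0.0144). Ciart, a repressor of the BMAL1 and CLOCK pair, had 2.28 ± 0.263, 3.73 ± 0.932 and 6.01 ± 2.41 (1.40, SE 0.27, edgeR adjusted p = 0.058), Usp2, a deubiquitinating enzyme, 93.9 ± 12.1, 119 ± 2.84 and 165 ± 45.2 (0.81, SE 0.16, edgeR adjusted p = 0.0771), and Hif3a, a bHLH-PAS relative, 1.16 ± 0.627, 1.66 ± 0.374 and 4.05 ± 1.11 (1.81, SE 0.34, edgeR adjusted p = 0.0567). Of these, the calls of Ciart, Usp2 and Hif3a were lost in 6, 9 and 5 of the 12 fits without 1 library.

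The genes called lower beside the activators were Cry1 and Nfil3. Nfil3, which encodes a repressor of D-box genes, stood at 10.4, 8.30, 7.56 and 10.4 normalized CPM in Control, 5.97, 4.09, 3.79 and 4.75 in 10CBD and 3.05, 4.07, 4.20 and 3.56 in 20CBD, so all treated mice were below Control (log2 fold change in 20CBD -1.30, SE 0.19, edgeR adjusted p = 0.0144). Cry1, a Cryptochrome gene, stood at 6.69 ± 2.19 normalized CPM in Control, 3.07 ± 1.01 in 10CBD and 2.68 ± 0.522 in 20CBD. Its log2 fold change in 20CBD was -1.32 (SE 0.28, edgeR adjusted p = 0.0897), and this call was lost in 9 of the 12 fits without 1 library.

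Of the 9 relatives tested that share the bHLH-PAS fold, 0 were called in 10CBD (edgeR, 0 with an unadjusted p under 0.05, and 0 by DESeq2) and only Hif3a in 20CBD, with a median log2 fold change of 0.02 and 0.04. Bmal2, the paralog of Bmal1, was at 1.18 ± 0.191, 0.961 ± 0.330 and 1.13 ± 0.084 normalized CPM (SD, n = 4 each) with 13 to 29 counts per library. Arnt, the general partner of this family, was at 41.0 ± 3.56, 41.7 ± 0.917 and 42.2 ± 2.73, and Arnt2 at 36.0 ± 4.84, 33.2 ± 2.96 and 39.7 ± 3.92. The groups overlapped for each of these 3. Ahrr, Npas1, Npas3 and Npas4 did not pass the filter on low counts.

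For the 16 cofactors of the activator pair, such as the acetyltransferases Ep300 and Crebbp and the deacetylase Sirt1, 0 were called at either dose in edgeR, and 0 had an unadjusted p under 0.05 or were called by DESeq2 or limma-voom. Their log2 fold changes ran from -0.32 to 0.19 in 10CBD and from -0.21 to 0.15 in 20CBD. Only for Kat2a, 1 of the 16, did all mice of each dose lie below all Control mice (log2 fold change -0.20 and -0.21). Of all genes tested 1.64% and 2.63% did so. Of the 13 kinase, glycosylation and ubiquitin genes acting on the loop, 0 were called in 10CBD (edgeR, 0 with an unadjusted p under 0.05, and 0 by DESeq2) and Usp2 alone in 20CBD, with a range of -0.23 to 0.51 and -0.21 to 0.81.

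**Figure D5:**
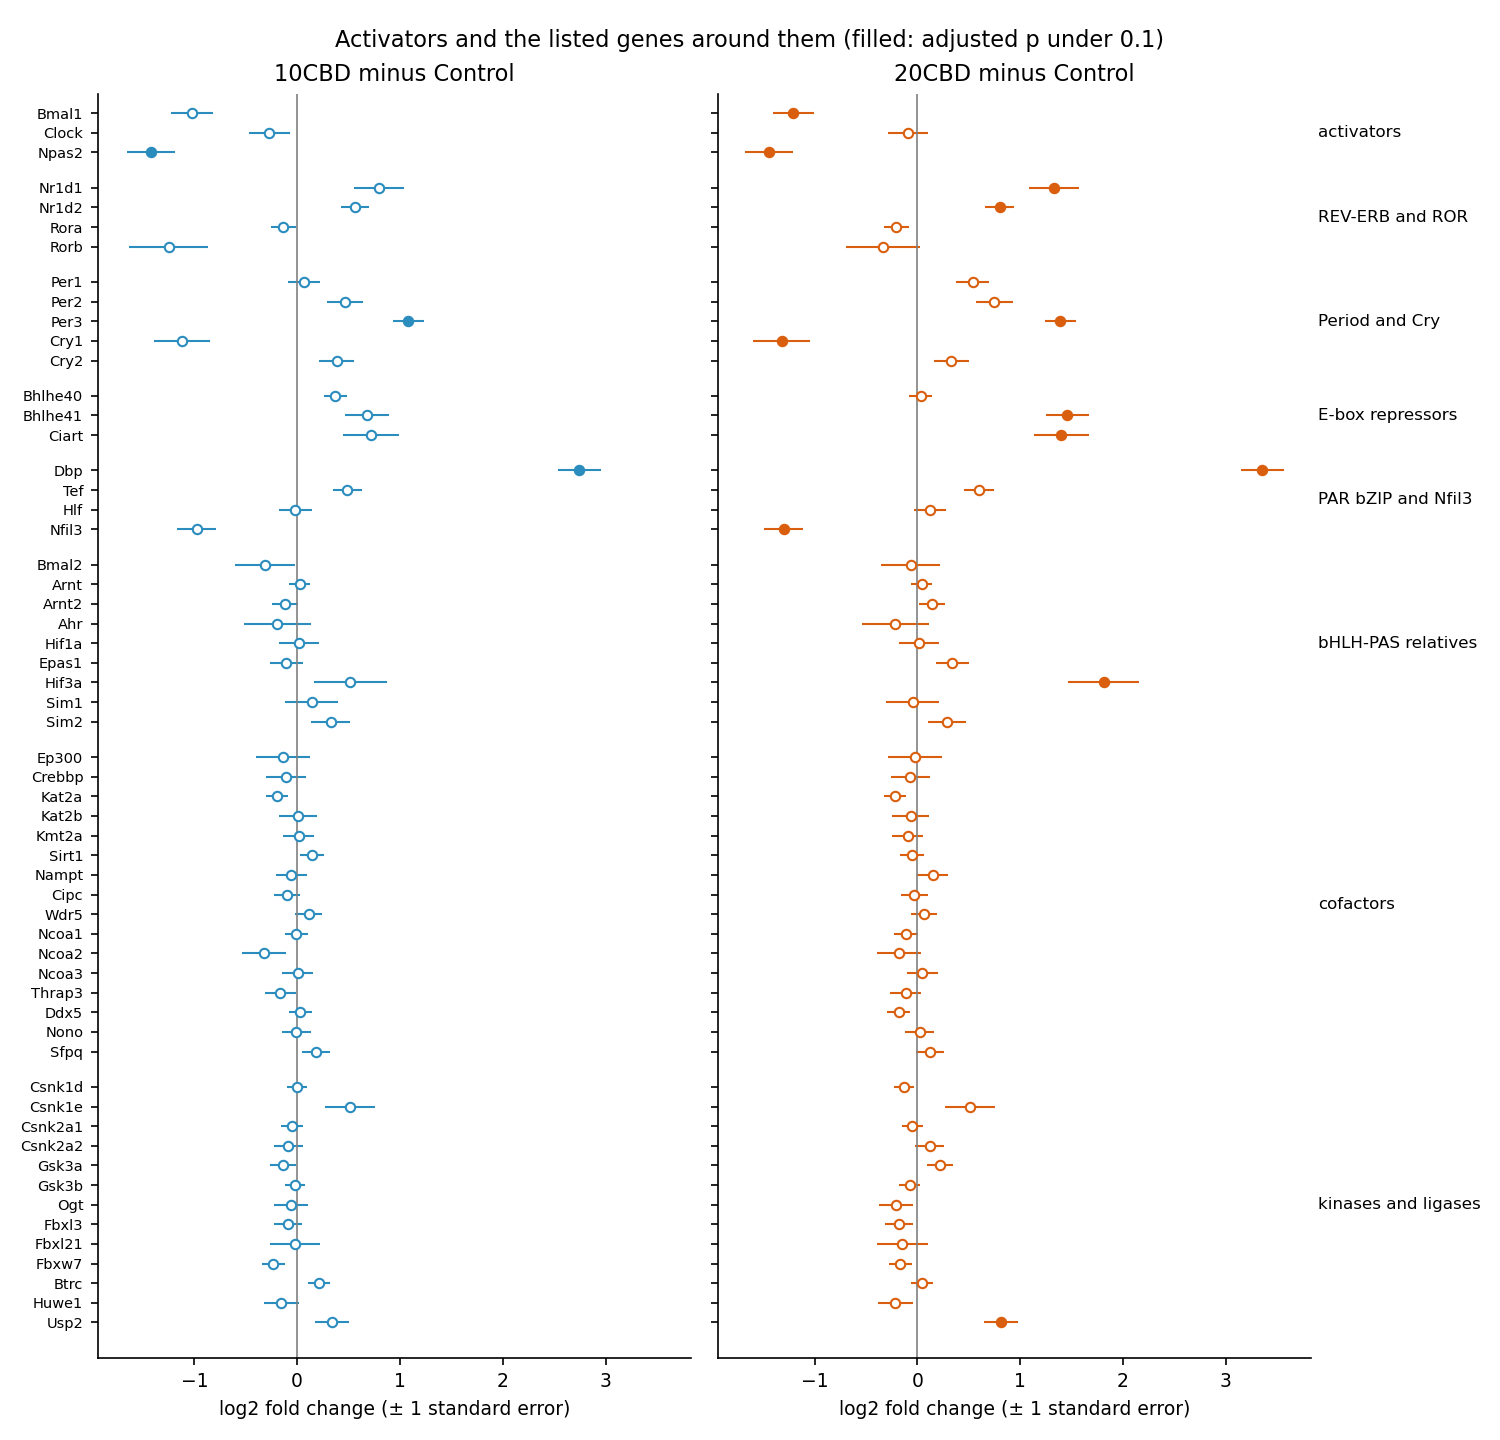
EdgeR log2 fold change (± 1 standard error) of the 3 activators and the 54 listed genes tested, in 10CBD (left) and 20CBD (right) against Control, on the same axis and grouped by role; filled points have an adjusted p under 0.1. Dbp lies farthest to the right at 2.75 and 3.35, Npas2, Bmal1, Cry1 and Nfil3 lie to the left at both doses, Rorb lies at -1.25 in 10CBD, and the 16 cofactors stay between -0.32 and 0.19.

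Genes with the pattern most like each activator over the 12 libraries were ranked by Pearson's r of log2 CPM among the 17163 genes, as a description without a test. For Bmal1 they were Nav2 (r = 0.952), Ypel2 (0.947), Ppard (0.931), Gm12121 (0.916) and Dtx4 (0.905). Nav2 stood at 87.1 ± 3.55 normalized CPM in Control (SD, n = 4), 57.3 ± 4.39 in 10CBD and 56.2 ± 12.0 in 20CBD. Ppard, which encodes the nuclear receptor PPAR delta, stood at 37.2 ± 2.86, 18.8 ± 0.509 and 18.2 ± 2.91. The genes with the lowest r, an inverse pattern, were Dbp (-0.925), Per3 (-0.920) and Tef (-0.916).

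For Npas2 the most alike were Ipmk (r = 0.951), Itga6 (0.927), Ppard (0.923), Slc22a23 (0.919) and Nav2 (0.913). The most inverse were Gm55632 (-0.930), Tef (-0.920) and Per3 (-0.911). Bmal1 and Npas2 thus had 2 of their 5 genes in common, Nav2 and Ppard. For Clock the most alike were Rbbp8 (r = 0.966), Slc19a3 (0.964), Rfx7 (0.962), Rictor (0.959) and Mtmr2 (0.959). The most inverse were Timm17b (-0.967), Tmed9 (-0.961) and Tie1 (-0.958), with none in common with the other activators. These libraries share group differences, the mitochondrial share and depth, and with the group means removed 0, 2 and 0 of the 5 genes stayed among the 5 for Bmal1, Clock and Npas2.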

How the data were processed

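Poly(A) RNA of 12 mouse kidneys was sequenced as paired reads, 1 library per mouse. Per the labels and the methods, the authors trimmed reads with Flexbar, mapped them with STAR 2.7.5c to GRCm39 and counted them per Ensembl gene with HTSeq 1.99.2, and the deposited files hold these raw counts. The annotation release, the strand setting and the handling of molecular identifiers are not given in the sources used here. Reads outside genes made up 12.1% to 19.9% of uniquely placed reads and reads on several genes 4.72% to 5.29%. The summary lines that hold them were left out. Identifiers were matched to GENCODE vM39 (99.0% found), and no libraries were identical.

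Counts were analysed with edgeR 4.0.16 in R 4.3.3: filterByExpr by group (17163 genes), TMM, and the quasi-likelihood test in 1 model of the 3 group means over all 12 libraries. P-values were adjusted by Benjamini-Hochberg over all genes tested, and an adjusted p under 0.1 was called. Log2 CPM used a prior count of 2. Confidence levels are 95%. The steps were tested on simulated data. Promoter windows are from RefSeq.

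The members and the gene lists were chosen with earlier results of these data known. Named genes are the 3 activators, the REV-ERB and ROR receptors, Bmal2, Arnt and Arnt2, and listed genes called at either dose. Per1, Per2, Cry2, Tef, Hlf and Bhlhe40 are named though not called. For each activator the 5 genes with the highest and the 3 with the lowest r are also named. Of the listed genes, 1 is not reported here. Alternatives were RLE normalization, no filter, DESeq2 1.42.0, limma-voom (limma 3.58.1), the replicate number as a block, a fit of only the groups compared, the mitochondrial share as a covariate, removal of mitochondrial and ribosomal RNA genes, a threshold of 0.05 and leaving out each library. An adipocyte covariate and a fit of the 8 libraries with a mitochondrial share of at least 10% were chosen after seeing the data.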

Additional observations from a re-analysis of the deposited data

Results flagged for a closer look

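Of 117 groups of 4 mice checked, 7 held a mouse far from the other 3 by Dixon's criterion, where chance alone flags about 1 in 20 groups. For Bmal1, mouse 1 of Control had 28.0 normalized CPM against 19.7 to 20.1 in the others. In the log2 ratio of Npas2 to Clock, mouse 4 of Control had -1.79 against -1.45 to -1.44, and mouse 1 of 10CBD had -2.23 against -2.84 to -2.80. Nr1d1 was at 40.1 normalized CPM in mouse 3 of 20CBD against 74.4 to 78.5. Hif3a was at 1.10 in mouse 1 of 10CBD against 1.81 to 1.91. Tie1 was at 41.4 in mouse 2 of Control against 30.8 to 32.6, and Ipmk at 73.4 in mouse 2 of 10CBD against 66.1 to 67.0. Mouse 2 of Control, mouse 1 of 10CBD and mouse 3 of 20CBD also had a mitochondrial share under 10%.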

How the results depend on the processing

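Of 897 recomputed values for 39 single-gene results, 796 kept their direction and their side of the threshold. The 20CBD minus 10CBD count of activators called was 0 in every alternative. In 10CBD against Control, 1 activator was called, and 2 were with DESeq2, with the mitochondrial share as covariate, without the filter or with only the groups compared, and 0 at an adjusted p under 0.05 or with the adipocyte covariate; leaving out 1 library gave 0 to 2. In 20CBD, 2 were called, 0 with the adipocyte covariate, and 1 to 2 without 1 library. Of the loop and cofactor genes, 2 were called in 10CBD, and DESeq2 gave 5, the mitochondrial covariate 4, no filter 6, the 8 libraries with a higher mitochondrial share 5, the adipocyte covariate 1 and leaving out 1 library 1 to 2. In 20CBD 10 were called, 15 with the mitochondrial covariate, 6 at an adjusted p under 0.05, 1 with the adipocyte covariate and 4 to 10 without 1 library. The cause was not tested.

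The sign turned for Clock between the doses with the mitochondrial covariate (-0.048) and in the 8 libraries (-0.054), for Rora in 10CBD in those libraries (0.024) and for Arnt in 10CBD there (-0.044) and without the filter (-0.000267). Without 1 library it turned for Npas2 between the doses (-0.18 to 0.13), Bmal2 in 20CBD (-0.12 to 0.048), and Arnt in 10CBD (-0.029 to 0.072) and 20CBD (-0.012 to 0.089); none of these was called. The replicate numbers did not pair the mice: the 12 correlations of same-numbered mice ran from -0.33 to 0.32, 4 were over 0.1, and 0 libraries were closest to their own number. With the number as a block, 0 activators were called in 10CBD and 2 in 20CBD, and 7 of the loop genes in 20CBD. The lists of most similar genes kept 1 of 5 genes for each activator under Spearman's rho, all 5 under RLE, and 0 to 5 without 1 library. Depth limits Rorb and Bmal2.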
